A study of Mus musculus with 6 samples.

Results

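The genes described here encode the stress sensors, chaperones, disulfide enzymes and degradation machinery of the endoplasmic reticulum (ER). They were measured by RNA sequencing in high glucose in MPC5, a mouse line of conditionally immortalised podocytes. Members were the rows of the count table named by a fixed list of 44 genes. Of these, 42 were found under the listed symbol, and the other 2, Ero1l and Ero1lb, under their current symbols Ero1a and Ero1b. All 44 were therefore located among 21719 genes. They fall into 7 sensors and transcription factors, 17 chaperones and co-chaperones, 9 disulfide enzymes and 11 degradation genes.

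Libraries labelled Setdb2KO (knockout, n = 3) were compared with libraries labelled Setdb2WT (wild type, n = 3), and every library came from cells in high glucose. Setdb2 belongs to the SET-domain family and is counted among the histone H3 lysine 9 methyltransferases. The labels give neither the way the gene was edited nor whether the edited cells are a single clone. Nothing in them says whether replicate libraries come from independent cultures; the p-values therefore reflect nothing beyond the variation among these 6 libraries, and that variation may be technical. Totals ran from 36461449 to 36761970 reads per library labelled Setdb2KO and from 36767396 to 37129174 per library labelled Setdb2WT. Setdb2 itself had 17, 15 and 25 reads in the libraries labelled Setdb2KO and 12, 10 and 9 in those labelled Setdb2WT, a log2 fold change of 0.73 (SE 0.38) short of the threshold in edgeR's test (adjusted p = 0.0881). The targeted RNA was thus not lower under the knockout label, and all directions below are those of the labels. Of 16 podocyte markers, 12 were in the table; Wt1 averaged 0.00869 CPM against 0.0285 CPM and Lmx1b 0.0173 CPM against 0.0191 CPM, so both were near 0, whereas Synpo averaged 25.4 CPM against 43.6 CPM and Nes 276 CPM against 325 CPM. CPM is a gene's read count scaled to library size with TMM factors, and the first value of each pair is that of the libraries labelled Setdb2KO. The other listed podocyte markers were not analysed here. Summed podocyte markers held 1610 to 1680 CPM in the libraries labelled Setdb2KO and 1860 CPM in those labelled Setdb2WT, with 4 of 10 tested markers higher and 5 lower. Summed tubule markers (2 of 2 tested lower) held 374 to 394 CPM against 619 to 633 CPM, parietal markers (1 higher and 2 lower of 3) 563 to 607 CPM against 862 to 873 CPM, and mesangial markers (4 of 4 lower) 19.9 to 22.6 CPM against 54.7 to 58.8 CPM. Endothelial markers (1 of 2 tested higher, 1 lower) summed to 12 to 13.4 CPM against 10.3 to 11.8 CPM, and immune markers (1 of 2 higher, 1 lower) to 9.72 to 12.1 CPM against 13.7 to 15.2 CPM; Emcn and Ptprc had 0 reads in every library labelled Setdb2KO and averaged 0.00954 and 0.133 CPM in those labelled Setdb2WT. Other markers of these lists lay the other way without being tested: Itgam (immune) had 12, 9 and 13 reads under the knockout label and 0 in every library under the wild-type label, and Pecam1 (endothelial) 18, 12 and 9 reads against 3, 3 and 2. The part of these markers in the results below was not tested.

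Proteins that enter the secretory pathway fold in the ER with the help of BiP (Hspa5) and other chaperones, of lectins that read their glycans, and of enzymes that form disulfide bonds. When unfolded proteins accumulate, the membrane sensors IRE1 (Ern1), PERK (Eif2ak3) and ATF6 (Atf6) signal to the nucleus. IRE1 splices the Xbp1 mRNA, ATF6 is cut to release a transcription factor, and PERK slows translation while favouring that of Atf4. Proteins that fail to fold are drawn back to the cytosol and degraded. Podocytes, which secrete matrix and maintain the slit diaphragm, are known to activate these pathways in kidney disease. Gene counts do not show the splicing of Xbp1 or the cleavage of ATF6.

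Most chaperones and disulfide enzymes were lower in the libraries labelled Setdb2KO, whereas sensors and degradation genes moved in both directions, with shares that rose (42.9% and 50%) near that of all genes tested (41.5%). Of 44 members 42 had enough reads to be tested, of which 26 fell (61.9%), 13 rose (31.0%) and 3 did not pass. Changes were common across the table: of 13509 genes tested, 83.8% passed, 42.3% lower and 41.5% higher, so the number of members that changed (39, or 92.9%) has to be read against that background. Falls of at least 2-fold numbered 14 among the members (33.3%, against 16.2% of all genes tested), and rises of at least 2-fold numbered 7 (16.7%, against 16.4%). In either direction, 32.6% of all genes tested and 21 members passed with at least a 2-fold change. The members' median log2 fold change was -0.70, against 0.005 over all genes tested. The 3 libraries of each group did not overlap in 39 of the 42 members, against 84.6% of all genes tested. Scaling by total counts alone moved the median of all genes to 0.16 and that of the members to -0.55, with 25 members lower and 16 higher.

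**Figure D1:**
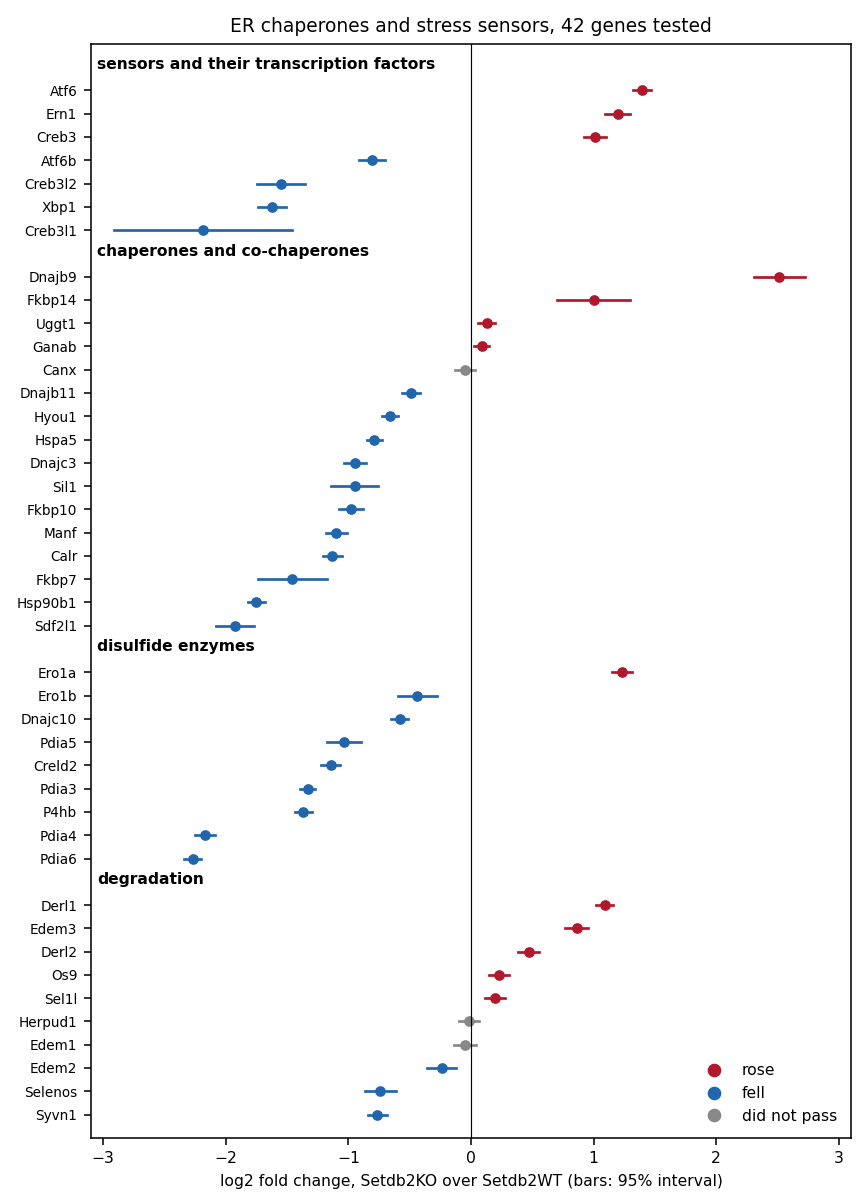
Log2 fold change of each tested member (x axis; libraries labelled Setdb2KO over Setdb2WT) with its 95% interval, by role group; red points rose, blue points fell and grey points did not pass edgeR's test. Of 9 disulfide enzymes 8 lie left of 0, whereas the 10 tested degradation genes lie on both sides, between -0.76 and 1.09.

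The promoters of the members were examined as a description, without a test. The ER stress response element (ERSE), a known binding element of ATF6 and XBP1, was searched as CCAAT and CCACG with any 9 bases between them, on both strands, in RefSeq promoters of build GRCm38.p6 that run from 250 bases before the annotated start to 50 after it. A promoter was found for 37 members, and 10 of them held at least 1 exact match, against 0.119% of all 32851 promoters. Members were counted as genes, whereas the share of all is of promoters and includes those of the members. Among those 10 members 8 fell, 0 rose, Canx did not pass (it was higher and passed under total-count scaling) and Derl3 was not tested. Among the 27 members whose promoter held no exact match 13 fell, 11 rose, 2 did not pass and 1 was not tested. Outside the members, 9 tested genes held a match, of which 5 rose and 4 fell. ERSE was first described on promoters of ER chaperone genes, so its presence in this set is not independent of the choice of members, and a match in letters is not evidence of binding. The matches of the 8 members that fell are shown with 10 bases on either side, each on the strand of its gene, 5′ to 3′, with the fixed letters of the element in capitals; CGTGG before ATTGG is the same element on the opposite strand.
Hspa5: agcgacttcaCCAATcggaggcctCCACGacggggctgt
Hsp90b1, distal: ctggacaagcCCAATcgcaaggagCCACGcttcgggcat
Hsp90b1, proximal: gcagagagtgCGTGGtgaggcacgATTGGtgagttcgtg
Calr: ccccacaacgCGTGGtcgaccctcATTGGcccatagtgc
Pdia6: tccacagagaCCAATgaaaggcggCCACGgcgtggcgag
Creld2: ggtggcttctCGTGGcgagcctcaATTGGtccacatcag
Dnajc3: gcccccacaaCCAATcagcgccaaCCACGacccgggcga
Syvn1: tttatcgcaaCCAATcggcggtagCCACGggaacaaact
Ero1b: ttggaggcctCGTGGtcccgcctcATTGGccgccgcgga

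These windows lie, in GRCm38.p6, at chr2:34772015-34772053 for Hspa5, chr10:86705628-86705666 and chr10:86705523-86705561 for Hsp90b1, chr8:84847065-84847103 for Calr, chr12:17266481-17266519 for Pdia6, chr15:88819510-88819548 for Creld2, chr14:118937817-118937855 for Dnajc3, chr19:6046522-6046560 for Syvn1 and chr13:12565672-12565710 for Ero1b. Hsp90b1 and Calr are transcribed from the minus strand and the others from the plus strand. The match of Canx, the member with an element whose level did not pass, is shown for comparison and lies at chr11:50325790-50325828 on the minus strand.
Canx: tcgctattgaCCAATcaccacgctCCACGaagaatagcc

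The promoter of Hspa5, the best-known carrier of the element, is given for the 250 bases before its start (chr2:34771840-34772089, plus strand), with the exact match in capitals.
Hspa5 promoter: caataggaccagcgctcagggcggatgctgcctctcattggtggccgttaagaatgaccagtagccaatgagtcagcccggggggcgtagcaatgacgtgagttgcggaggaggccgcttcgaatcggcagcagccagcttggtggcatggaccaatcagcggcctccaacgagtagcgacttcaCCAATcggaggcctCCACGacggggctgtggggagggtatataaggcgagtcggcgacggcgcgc

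The exact match of Hspa5 spans positions -65 to -47 from the start, and that of Syvn1, the nearest to its start, -44 to -26. The proximal match of Hsp90b1 spans -107 to -89 and the match of Pdia6 -98 to -80. A related element, ERSE-II, was searched as ATTGG and CCACG with any 1 base between them, on both strands, and is present in 0.0365% of all promoters. Outside the members, 8 tested genes held it, of which 4 rose (Nucb1 among them), 3 fell and 1 did not pass. Among the members, Dnajb11 held it just after its start and fell. Herpud1 held it at -52 to -42 (window chr8:94386367-94386397, plus strand) and did not pass.
Herpud1: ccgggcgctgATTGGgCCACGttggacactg

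The letters CCACG, which are part of both elements, occurred in 31 of the 37 member promoters and in 32.8% of all promoters. TGACGTGG, searched in these exact letters as a core of the XBP1-binding element, was in 0 of the 37 and in 0.676% of all. Other forms of this core were not searched. The Hspa5 promoter shown above holds TGACGTGA, which differs in its last letter.

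**Figure D2:**
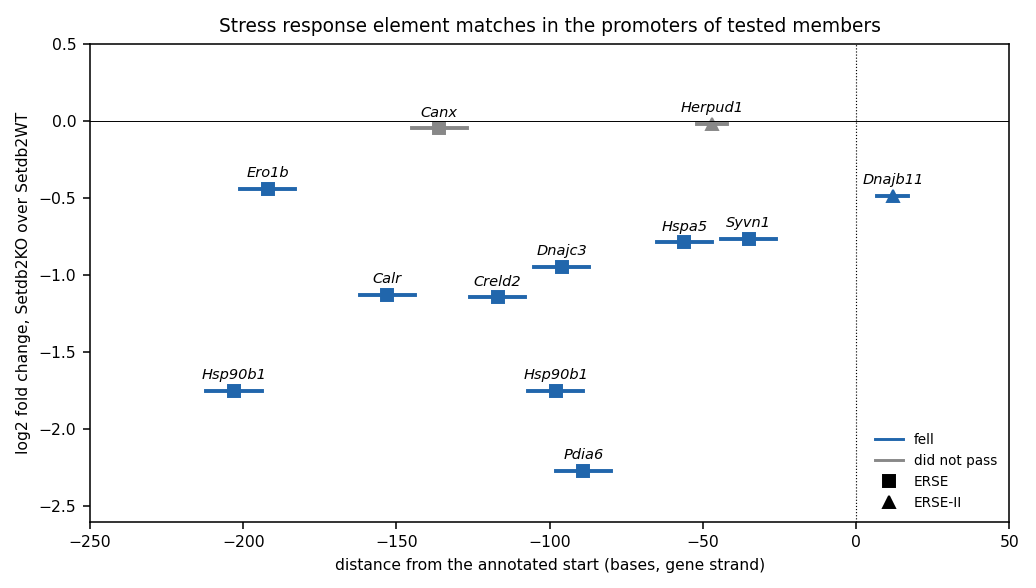
Position of each exact ERSE (squares) or ERSE-II (triangles) match relative to the annotated start (x axis, bases on the gene strand) against the log2 fold change of the gene (y axis; libraries labelled Setdb2KO over Setdb2WT); blue marks genes that fell and grey those that did not pass. No member with a match lies above 0 in the fit shown, and the lowest, Pdia6, has a log2 fold change of -2.27. Under total-count scaling Canx and Herpud1 lie above 0. Herpud1 also does so under several other alternatives, by no more than 0.007 and without passing.

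Among the sensors, Ern1, Atf6 and Creb3 rose and Xbp1, Atf6b, Creb3l1 and Creb3l2 fell, so the membrane sensors Ern1 and Atf6 were higher while the transcript that IRE1 splices was lower. Ern1, the kinase and endoribonuclease IRE1, had 60.3, 62.2 and 63.2 CPM in the libraries labelled Setdb2KO, against 27.2, 27.7 and 26.1 CPM in those labelled Setdb2WT. All libraries labelled Setdb2KO lay above all others, a 2.29-fold difference (log2 fold change 1.2, SE 0.05). Atf6, the membrane-bound transcription factor, had 176, 185 and 176 CPM under the knockout label and 68.8, 67.7 and 67.8 CPM under the wild-type label. It rose 2.63-fold (log2 fold change 1.4, SE 0.04), the largest rise among the 7. Creb3, a related factor of the ER membrane, had 87.3, 92.0 and 86.3 CPM against 43.2, 45 and 43.6 CPM in libraries labelled Setdb2KO and Setdb2WT, and the groups did not overlap (2.02-fold higher). In the GENCODE M21 annotation 20.8% of the exon bases of Creb3 overlap Gba2 and Tln1 on the opposite strand, and since the strand setting is not given, reads from them cannot be told apart.

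Xbp1, the bZIP factor downstream of IRE1, had 26.3, 28 and 24.5 CPM in the libraries labelled Setdb2KO and 77.3, 82.9 and 82.8 CPM in those labelled Setdb2WT. It fell 3.08-fold (log2 fold change -1.62, SE 0.05), with no overlap. Creb3l2, a factor tied to secretory capacity, had 6.2, 6.43 and 5.53 CPM against 16.8, 19.2 and 17.3 CPM, and fell 2.93-fold. Atf6b, the paralogue of Atf6, fell 1.75-fold to 43.9 ± 2.8 CPM under the knockout label, against 76.9 ± 1.8 CPM under the wild-type label (SD, n = 3 each), opposite in direction to Atf6. Creb3l1 was close to the detection limit, with 8, 11 and 10 reads in the libraries labelled Setdb2KO and 35, 35 and 51 in those labelled Setdb2WT, and its fall (log2 fold change -2.19, SE 0.34) is the least precise of the group. In edgeR's quasi-likelihood test the Benjamini-Hochberg adjusted p of these 7 genes lay between 1.07e-13 and 3.21e-05.

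**Figure D3:**
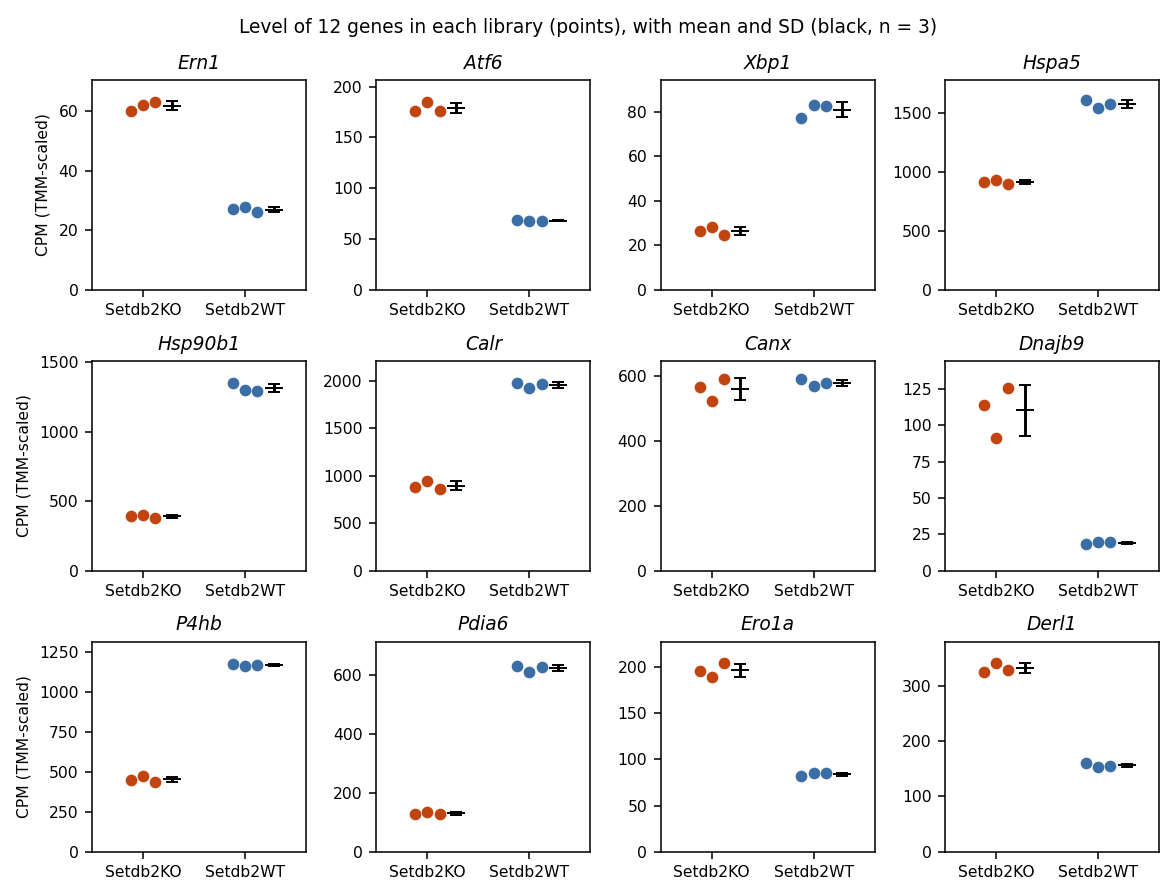
Level of 12 members in each library (y axes, TMM-scaled CPM from 0), with libraries labelled Setdb2KO left and Setdb2WT right in each panel; points are libraries and black marks give the mean and SD (n = 3). Only Canx, of the 12 shown, has overlapping groups, and Dnajb9 has the widest spread, 91.1 to 126 CPM, under the knockout label.

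The major chaperones of the ER lumen were lower. Of 16 chaperones and co-chaperones tested 11 fell (68.8%), 4 rose (25%) and Canx did not pass. Their median was -0.87 on the log2 scale. Over all genes tested 42.3% fell and 41.5% rose. Hspa5, which encodes the HSP70 chaperone BiP, had 911, 929 and 896 CPM in the libraries labelled Setdb2KO and 1607, 1542 and 1571 CPM in those labelled Setdb2WT. It fell 1.73-fold (log2 fold change -0.79, SE 0.03) without overlap. Hsp90b1, the ER member of the HSP90 family known as GRP94, fell further, at 394, 401 and 377 CPM against 1346, 1299 and 1295 CPM (3.36-fold; log2 fold change -1.75, SE 0.03). In the GENCODE M21 annotation 15.7% of the exon bases of Hsp90b1 and 9.25% of those of Manf overlap other genes, on the same and on the opposite strand. How far reads from these genes enter the counts of Hsp90b1 and Manf is not known.

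The lectin chaperones, which bind monoglucosylated glycans, did not move as a pair. Calr, the soluble lectin calreticulin, had 882, 948 and 856 CPM in the libraries labelled Setdb2KO and 1984, 1928 and 1966 CPM in those labelled Setdb2WT, a 2.19-fold fall (log2 fold change -1.13, SE 0.04). Canx, its membrane-bound relative calnexin, had 566, 523 and 591 CPM against 589, 570 and 578 CPM. The Canx groups overlapped, and its log2 fold change of -0.05 (95% interval -0.13 to 0.04) did not pass edgeR's test (adjusted p = 0.256); under total-count scaling it was 0.11 and passed (adjusted p = 0.0219), and without Setdb2KO replicate 3 it was -0.088 and passed (adjusted p = 0.0297). Uggt1, which adds glucose back to glycans of misfolded proteins, and Ganab, the catalytic subunit of glucosidase II that removes it, rose by small amounts, 1.09-fold and 1.06-fold. Ganab did not pass without Setdb2WT replicate 3 (adjusted p = 0.0696).

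The co-chaperones that set the ATPase cycle of BiP mostly fell, with a large exception. Dnajb9, the J-domain protein ERdj4, had 114, 91.1 and 126 CPM in the libraries labelled Setdb2KO and 18.5, 19.7 and 19.8 CPM in those labelled Setdb2WT. This 5.71-fold rise (log2 fold change 2.51, SE 0.10) was the largest change of any member in either direction, and the groups did not overlap despite the spread under the knockout label. The other J-domain proteins fell, Dnajb11 (ERdj3) 1.4-fold and Dnajc3 (p58IPK) 1.93-fold. Sdf2l1, a partner of ERdj3, had 10.3, 11.4 and 9.49 CPM against 41.2, 37.8 and 39.2 CPM and fell 3.79-fold. Hyou1 and Sil1, nucleotide exchange factors of BiP, fell 1.58-fold and 1.93-fold, and Manf, a secreted protein that binds BiP, fell 2.14-fold, to 115 ± 6.5 CPM under the knockout label against 247 ± 3.7 CPM under the wild-type label (SD, n = 3 each).

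The prolyl isomerases of the FKBP family, some of which act on procollagen, were split. Fkbp7 had 2.43, 3.20 and 2.63 CPM in the libraries labelled Setdb2KO and 7.24, 7.77 and 7.68 CPM in those labelled Setdb2WT, a 2.74-fold fall. Fkbp10 fell 1.97-fold, to 48.7 ± 2.7 CPM under the knockout label against 96.0 ± 1.4 CPM under the wild-type label (SD, n = 3 each), and Fkbp14 rose 2.00-fold, at 6.32 ± 0.56 CPM against 3.15 ± 0.47 CPM. Fkbp2 had 9, 7 and 5 reads against 8, 5 and 4 and was too low to be tested; the annotation used for counting is not given, so these few reads may not stand for the level of the gene. The 15 chaperones and co-chaperones that passed had edgeR adjusted p between 4.58e-15 and 0.0104.

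Enzymes that form and rearrange disulfide bonds were lower, with the exception of Ero1a. Of 9 tested 8 fell (88.9%, against 42.3% of all genes tested) and 1 rose (11.1%, against 41.5%). Falls of at least 2-fold numbered 6 (66.7%, against 16.2%). The median of the 9 was -1.14 on the log2 scale. Pdia6, a protein disulfide isomerase that also binds BiP, had 128, 133 and 126 CPM in the libraries labelled Setdb2KO and 630, 611 and 626 CPM in those labelled Setdb2WT. Its 4.82-fold fall (log2 fold change -2.27, SE 0.03) was the largest fall of any member. Pdia4, the isomerase ERp72, had 65.7, 66.4 and 62.0 CPM against 292, 284 and 298 CPM and fell 4.5-fold. P4hb, the founding isomerase PDI and a subunit of prolyl 4-hydroxylase, had 451, 471 and 438 CPM under the knockout label and 1176, 1162 and 1171 CPM under the wild-type label. Its fall of 2.58-fold was close to that of Pdia3 (ERp57), the isomerase that works with calreticulin and calnexin, which had 352, 349 and 338 CPM against 871, 874 and 869 CPM and fell 2.51-fold.

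Ero1a, the oxidase that passes oxidising equivalents to PDI, moved the other way. It had 196, 190 and 204 CPM in the libraries labelled Setdb2KO and 81.9, 84.8 and 85.0 CPM in those labelled Setdb2WT, a 2.35-fold rise (log2 fold change 1.23, SE 0.04) without overlap. Its paralogue Ero1b fell 1.36-fold, to 17.0 ± 1.0 CPM under the knockout label against 23.1 ± 1.8 CPM under the wild-type label (SD, n = 3 each). Dnajc10, the reductase ERdj5, fell 1.5-fold, Pdia5 2.05-fold and Creld2, a stress-induced protein with isomerase activity, 2.21-fold. The 9 enzymes had edgeR adjusted p between 5.86e-16 and 7.09e-05.

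Genes of ER-associated degradation changed less and in both directions. Among 10 tested genes rises numbered 5 (50%, against 41.5% of all genes tested) and falls 3 (30%, against 42.3%), and 2 did not pass. The median of the 10 was 0.09 on the log2 scale, and under total-count scaling 7 rose and 2 fell. Derl1, a derlin of the membrane channel, had 324, 341 and 329 CPM in the libraries labelled Setdb2KO and 159, 154 and 154 CPM in those labelled Setdb2WT. It rose 2.13-fold (log2 fold change 1.09, SE 0.03), the only change of at least 2-fold in this group. Derl2 had 71.8, 74.0 and 73.5 CPM against 54.4, 52.8 and 51.0 CPM and rose 1.39-fold. Derl3, known from secretory tissues, had 1 read in all 6 libraries together and was not tested.

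The mannosidase-like EDEM proteins, which mark glycoproteins for disposal, each behaved differently. Edem3 had 117, 110 and 123 CPM in the libraries labelled Setdb2KO and 64.9, 64.9 and 63.4 CPM in those labelled Setdb2WT and rose 1.82-fold. Edem1 had 73.4, 77.9 and 74.6 CPM against 80.7, 75.1 and 78.2 CPM; its groups overlapped and its log2 fold change of -0.05 (95% interval -0.14 to 0.04) did not pass edgeR's test (adjusted p = 0.256), though it was 0.10 and passed under total-count scaling (adjusted p = 0.0284). Edem2 fell 1.18-fold, a call lost under total-count scaling (log2 fold change -0.085, adjusted p = 0.154).

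Within the HRD1 ligase complex the subunits parted. Syvn1, the ubiquitin ligase HRD1 itself, had 91.8, 97.5 and 90.0 CPM in the libraries labelled Setdb2KO and 159, 158 and 158 CPM in those labelled Setdb2WT, a 1.70-fold fall without overlap. Its adaptor Sel1l rose 1.15-fold and the lectin Os9, which delivers glycoproteins to it, rose 1.17-fold. Selenos, a selenoprotein that recruits the ATPase p97, had 30.3, 32.2 and 27.4 CPM against 48.2, 51.2 and 50.9 CPM and fell 1.67-fold. Herpud1, a stress-induced scaffold of the complex, averaged 97.9 ± 3.0 CPM under the knockout label and 99.1 ± 2.9 CPM under the wild-type label (SD, n = 3 each). Its log2 fold change of -0.02 (95% interval -0.10 to 0.06; adjusted p = 0.678 in edgeR's test) did not pass, though it was 0.14 and passed under total-count scaling (adjusted p = 0.00409). The 8 degradation genes that passed had edgeR adjusted p between 6.41e-13 and 0.000965.

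The share of sequenced reads held by the members shifted accordingly. All 44 together took up 0.761% to 0.781% of reads under the knockout label and 1.13% to 1.15% under the wild-type label. Disulfide enzymes held 0.148% to 0.153% against 0.326% to 0.328%, and chaperones 0.453% to 0.464% against 0.688% to 0.706%. Sensors and their factors held 0.0421% to 0.0443% against 0.0293% to 0.0306%, and degradation genes 0.117% to 0.120% against 0.0866% to 0.0892%. The libraries of the compared groups did not overlap in any of these shares, which are of total reads without further scaling. The larger shares of sensors and degradation genes were not group-wide: 4 of 7 sensors and 3 of 10 tested degradation genes fell. Under the knockout label Atf6 and Derl1 had the most reads of their groups. Atf6 had 6813, 7170 and 6758 reads under the knockout label and 2404, 2387 and 2360 under the wild-type label. Derl1 had 12542, 13216 and 12606 reads against 5572, 5422 and 5365. In bulk RNA, a change in the RNA per cell cannot be told apart from a change in which cells are present.

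**Figure D4:**
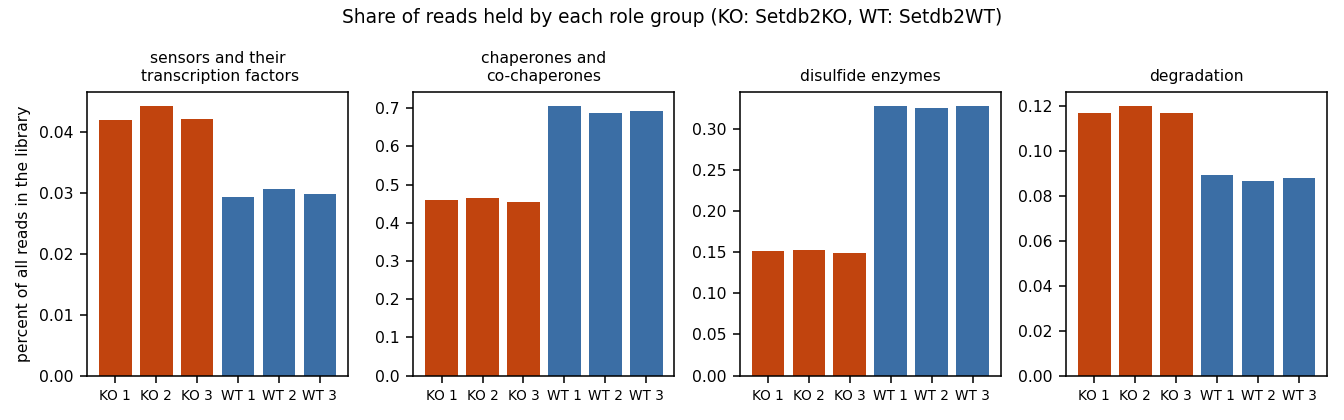
Percent of all reads in each library (y axes, from 0) held by each role group, with the libraries labelled Setdb2KO (orange, left) and Setdb2WT (blue, right). Disulfide enzymes and chaperones hold smaller shares in every library labelled Setdb2KO, and sensors and degradation genes larger shares. The shares are of summed reads, and 4 of 7 sensors and 3 of 10 tested degradation genes fell.

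Levels were also compared between members as CPM per kilobase of exon, with exon lengths from GENCODE M21 because the annotation behind the counts is not given. Calr had the highest level in both groups, at 311 CPM per kilobase under the knockout label and 680 under the wild-type label. Under the knockout label Hspa5 (216 CPM per kilobase), P4hb (158), Ganab (126) and Canx (119) came next. Under the wild-type label the order after Calr was P4hb (409 CPM per kilobase), Hspa5 (372), Hsp90b1 (326) and Pdia3 (277). Dnajb9 ranked 10th of 44 under the knockout label and 34th under the wild-type label, and Pdia6 15th against 6th. Ern1 stayed low, at 7.58 CPM per kilobase against 3.30.

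Spread between replicates was small for most members. The coefficient of variation over the 3 libraries had a median of 3.66% among tested members under the knockout label and 2.34% under the wild-type label. It exceeded 10% in 4 members under the knockout label, namely Dnajb9 (16.1%), Creb3l1 (15.8%), Sil1 (15.4%) and Fkbp7 (14.5%), and in 2 under the wild-type label, Creb3l1 (23.5%) and Fkbp14 (15.1%). In Dnajb9 and Canx the lowest library under the knockout label was Setdb2KO replicate 2.

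The genes listed for the PERK arm of the response were higher in RNA throughout. Gene counts do not show the activity of PERK, and whether these rises came from it was not tested. All 7 listed genes rose, 4 of them at least 2-fold (57.1%), and their median was 1.98 on the log2 scale. Over all genes tested 41.5% rose, 16.4% rose at least 2-fold, and the median was 0.005. Eif2ak3, which encodes PERK, had 52.9, 55.0 and 50.9 CPM in the libraries labelled Setdb2KO and 35.7, 33.9 and 37.9 CPM in those labelled Setdb2WT, a 1.48-fold rise. Atf4, whose protein is controlled mainly by translation, rose 1.2-fold, to 601 ± 15 CPM under the knockout label against 502 ± 1.3 CPM under the wild-type label (SD, n = 3 each). Its targets moved more: Trib3, a pseudokinase, had 132, 143 and 128 CPM against 16.3, 17.1 and 15.7 CPM (8.2-fold higher). Ddit3, the factor CHOP, had 161, 162 and 158 CPM against 19.2, 19.5 and 22.1 CPM (7.90-fold higher), and neither gene's groups overlapped.

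Of 7 partners of the sensors tested 4 rose (57.1%, against 41.5% of all genes tested) and 1 fell (14.3%, against 42.3%). Nucb1, a calcium-binding protein that restrains ATF6, rose 1.44-fold, and Tmbim6, a membrane protein that binds IRE1, rose 1.23-fold. Rtcb, the ligase that joins the Xbp1 exons after the cut by IRE1, fell 1.36-fold. The only change of at least 2-fold was in Creb3l4, a relative of Creb3 under 1 CPM that was named after its values were seen; it had 30, 24 and 25 reads in the libraries labelled Setdb2KO and 2, 7 and 10 in those labelled Setdb2WT (3.72-fold higher; edgeR adjusted p = 0.0012). The number that fell was 2 when either Setdb2KO replicate 3 or Setdb2WT replicate 3 was left out.

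Of 20 genes of the translocon and signal peptidase, through which proteins enter the ER, 10 rose (50%) and 9 fell (45%), shares near those of all genes tested (41.5% and 42.3%), and their median log2 fold change was 0.02. Sec62, a translocon partner, rose 2.04-fold and Sec11a, a signal peptidase subunit, 1.52-fold, whereas Srp72, a subunit of the signal recognition particle, fell 2.41-fold and Ssr1, of the translocon-associated complex, 2.22-fold. Genes that attach and trim glycans were mostly lower, with 10 of 16 lower (62.5%, against 42.3% of all genes tested) and 2 higher (12.5%, against 41.5%). Their median log2 fold change was -0.50. Ostc and Rpn1, subunits of the oligosaccharyltransferase, fell 2.15-fold and 1.51-fold, and Dad1 and Stt3a of the same enzyme rose 1.45-fold and 1.17-fold. Total-count scaling gave 10 lower and 6 higher, and DESeq2's size factors, upper-quartile factors and the filter at 1 CPM gave 5 higher.

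Further folding enzymes were also mostly lower. Of 34 tested 21 fell (61.8%) and 10 rose (29.4%), with a median log2 fold change of -0.52. Over all genes tested 42.3% fell and 41.5% rose. Serpinh1, the collagen chaperone HSP47, fell 3.07-fold, to 394 ± 17 CPM under the knockout label against 1209 ± 8.1 CPM under the wild-type label (SD, n = 3 each), and Txndc5, an isomerase, fell 3.68-fold. Sdf2, the constitutive relative of Sdf2l1, rose 2.10-fold and Tmx2, a membrane thioredoxin, 1.96-fold. Partners in degradation were mostly higher, with 15 of 21 higher (71.4%) and 4 lower (19%; median log2 fold change 0.36). Rnf185, a membrane ubiquitin ligase, rose 2.58-fold and Herpud2 2.16-fold, while Vcp, the p97 ATPase that extracts substrates, fell 2.29-fold and its cofactor Nploc4 1.45-fold. These lists are described by counts and medians, and no difference between lists was tested.

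**Figure D5:**
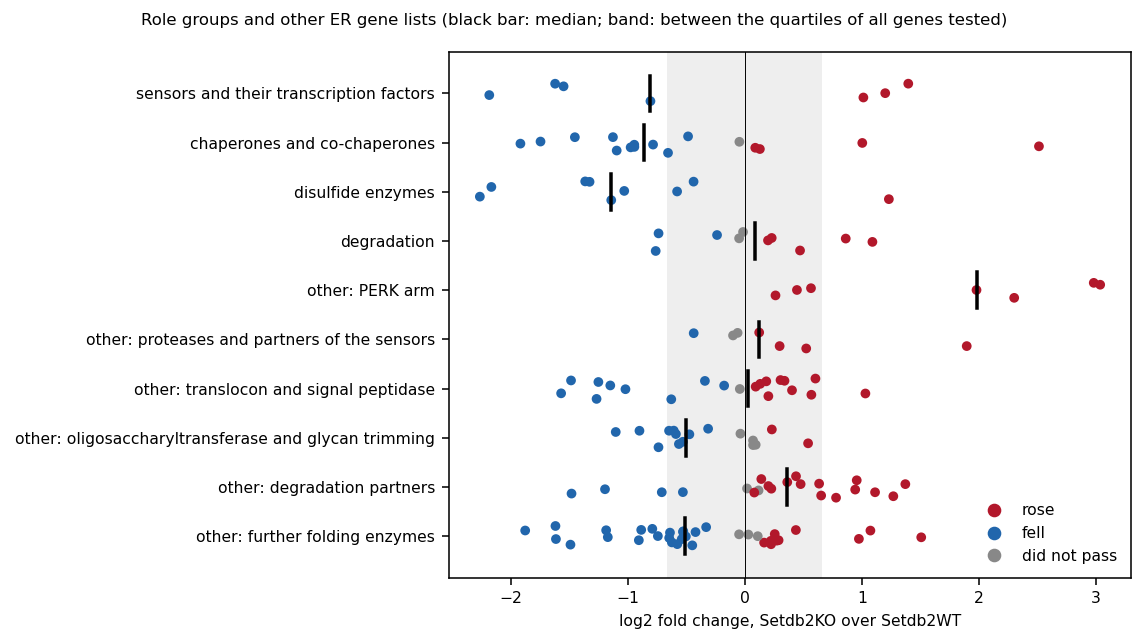
Log2 fold change (x axis; libraries labelled Setdb2KO over Setdb2WT) of each tested gene in the 4 role groups of the members and in 6 other ER lists, with black bars at the medians and a grey band between the quartiles of all genes tested (-0.66 to 0.65). The 3 role groups other than degradation have medians between -1.14 and -0.81, and the PERK arm has a median of 1.98.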

How the data were processed

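Total RNA of 6 samples was sequenced, and the authors deposited unnormalised counts of reads by gene for each of them. The submitters' processing notes name fastp, HISAT, HTSeq and the build GRCm39; their versions, the annotation and the strand setting were not given in the sources used here. Columns were matched to samples by genotype and number.

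The counts were tested with edgeR 4.0.16 (R 4.3.3), using the quasi-likelihood F test, TMM factors, filterByExpr at a minimum count of 10, and a design with genotype alone; p-values were adjusted over 13509 genes by the Benjamini-Hochberg method, with a threshold of 0.05. Totals of 36461449 to 37129174 reads make counting error small except for genes with a few reads. The standard error of a log2 fold change is that implied by the F statistic, and folds use a prior count of 0.125. No replicate pair was as close as sampling noise alone would make it. The chi-square per degree of freedom was 2.55 to 2.71 between libraries labelled Setdb2WT. Between libraries labelled Setdb2KO it was 4.38, 8.84 and 15.7, and the pairs at 8.84 and 15.7 both include Setdb2KO replicate 2. The scripts were tested on simulated data.

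The members and lists were chosen with earlier results of these data known. Values per library are given for Ern1, Atf6, Xbp1, Hspa5, Hsp90b1, Calr, Canx, P4hb and Edem1 and for the 5 members of each role group with the largest called change and a mean of at least 1 CPM; from other lists, the 2 genes with the smallest adjusted p in each direction and at least 1 CPM were named, besides Ddit3, Atf4 and Eif2ak3. Promoters are RefSeq's for GRCm38.p6, matched by Entrez ID, and exon lengths are from GENCODE M21 on GRCm38, matched by symbol; the counts themselves rest on GRCm39. Protein sequences were not used. The alternatives tried were 3 other scalings (size factors of DESeq2, upper quartile, total counts), the Wald test of DESeq2 1.42.0, no filter, a filter of 1 CPM in 3 libraries, the replicate number as a block, and each library left out.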

Additional observations from a re-analysis of the deposited data

How the results depend on the processing

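Of the 42 tested members, 37 kept their direction and their side of the threshold under every alternative that tested them. Exceptions were Canx, Edem1, Edem2, Ganab and Herpud1, all with small changes. Under total-count scaling the log2 fold changes of Canx (0.106), Edem1 (0.103) and Herpud1 (0.137) turned positive and passed. Herpud1 was also positive, without passing, with DESeq2's size factors (0.004), upper-quartile factors (0.001), the DESeq2 Wald test (0.004), the filter at 1 CPM (0.005) and without Setdb2KO replicate 3 (0.007); leaving out each library in turn put it between -0.056 and 0.007. Leaving out each library in turn gave 12 to 13 members higher and 26 to 27 lower, and the partners of the sensors 1 to 2 lower. Genes of glycan attachment that rose numbered 5 with DESeq2's size factors, 5 with upper-quartile factors, 6 under total-count scaling and 5 with the filter at 1 CPM, against 2 in the reported fit; the cause was not tested. The replicate block left the members at 13 higher and 26 lower. The counts gave no sign that replicate numbers pair the samples. Deviations of same-numbered libraries correlated at 0.001, -0.030 and -0.012, and 0 of 3 libraries labelled Setdb2KO correlated best with their own number. With 3 libraries per group, these values cannot show that the samples were unpaired. Depth limits Creb3l1, and Fkbp2 and Derl3 could not be tested.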

Other observations

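Several paralogues or close partners shifted relative to each other, a pattern chosen after their values were seen and given without a test. Ratios of reads within a library do not depend on scaling between libraries, and gene length cancels when the same ratio is compared between groups. Atf6 reads over Atf6b reads were 4.30, 3.97 and 4.00 in the libraries labelled Setdb2KO and 0.914, 0.860 and 0.885 in those labelled Setdb2WT. Sdf2 over Sdf2l1, both partners of ERdj3, gave 6.57, 5.95 and 7.18 under the knockout label and 0.786, 0.862 and 0.815 under the wild-type label, the largest fold between group means among the 7 ratios computed. Ero1a over Ero1b averaged 11.6 ± 0.55 against 3.64 ± 0.25, and Uggt1 over Uggt2 8.47 ± 1.0 against 5.44 ± 0.41 (SD, n = 3 each; libraries labelled Setdb2KO against Setdb2WT). Canx over Calr averaged 0.628 ± 0.071 against 0.296 ± 0.0015, Edem3 over Edem1 1.56 ± 0.12 against 0.826 ± 0.033, and Derl1 over Derl2 4.54 ± 0.076 against 2.95 ± 0.059. The groups did not overlap in any of the 7 ratios. As single genes, 84.6% of all genes tested also had groups that did not overlap, and the share among ratios of other pairs was not computed.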
